A study of Homo sapiens with 16 samples.

Results

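Binding of the ETS factors ERG and GABPα was compared in Jurkat cells, an established line of human T-cell leukaemia, from chromatin immunoprecipitation and sequencing (ChIP-seq) of 2 replicates per factor. These 4 samples, of the 16 in the series, were taken by their labels, which name the cell line and the target (GABPα is written GABPa there). They are called ERG 1, ERG 2, GABPα 1 and GABPα 2. The rest of the series consists of 6 ChIP samples from VCaP prostate cancer cells and 6 inputs. All 4 samples came from the same line grown in RPMI medium with 10% foetal bovine serum. The labels repeat 1 treatment text for every sample of the series, with charcoal-stripped serum and either R1881, a synthetic androgen, or ethanol, but give no treatment for a single Jurkat sample. The known differences between the targets are the antibody and the input, and whether treatment also differed is not known. The peak file headers name 1 input library for both ERG samples and another for both GABPα samples, so target and input cannot be told apart. For ERG the labels give the Santa Cruz antibody SC-816X, while the methods of the study list SC-353 for ERG. For GABPα both give SC-22810. The part of this conflict in the results was not tested.

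ETS factors share a DNA-binding domain that recognises a GGAA core, and cells express many of them side by side. GABPα is found in nearly all cell types, works in a complex with GABPβ, and is known for binding close to the start sites of widely expressed genes, among them genes for mitochondrial and ribosomal proteins. ERG has a narrower range, chiefly endothelial and blood stem cells, and its expression persists in some T-cell leukaemias. It is known for binding at enhancers as well as promoters.

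Far more GABPα than ERG binding sites were called. In each sample peaks were called by 2 programs, MACS and SWEMBL, and the peaks found by both formed the high confidence set. This set held 1103 peaks in ERG 1, 1801 in ERG 2, 8288 in GABPα 1 and 9769 in GABPα 2. Both GABPα samples thus lay above both ERG samples, with means of 1452 ± 494 (SD, n = 2) for ERG and 9029 ± 1047 (SD, n = 2) for GABPα. The ratio of geometric means was 6.38. An exact two-sided permutation test gave p = 0.333, which is the smallest value that 2 samples against 2 allow, and the same p applies to each comparison of samples below in which the targets do not overlap.

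**Figure D1:**
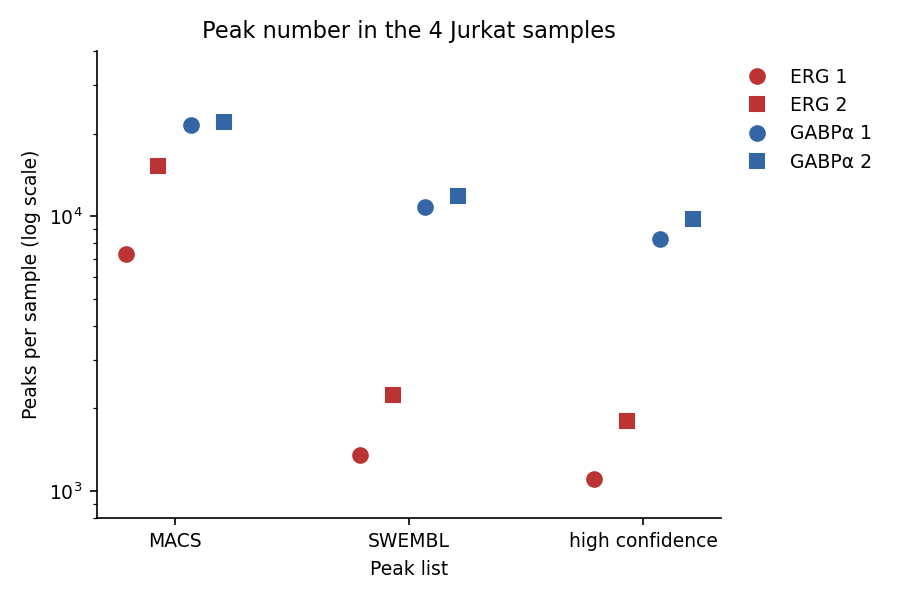
Number of peaks per sample (log scale) in the MACS, SWEMBL and high confidence lists. Circles are replicate 1 and squares replicate 2, with ERG in red and GABPα in blue; the targets lie closest in the MACS list, where ERG 2 has 15229 peaks and GABPα 1 has 21503.

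The excess depended on the list. MACS alone called 7288 peaks in ERG 1, 15229 in ERG 2, 21503 in GABPα 1 and 22108 in GABPα 2, and the ratio of geometric means fell to 2.07. SWEMBL called 1353, 2234, 10775 and 11828 peaks in the same order. The high confidence step kept 15.1% of the MACS peaks of ERG 1 and 10.2% of those of ERG 2, against 32.8% and 38.3% for GABPα 1 and 2. Weak peaks made up more of the ERG lists. MACS scores equal 10 times the −log10 of the p-value, and the lowest scores were 50, a p-value of 1e-05. Scores under 100 were held by 75.3% of the MACS peaks of ERG 1 and 72.3% of those of ERG 2, compared with 44.7% and 48.5% for GABPα 1 and 2.

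At like scores the targets were not separated in every range. From 200 up to 400, the share of MACS peaks kept was 82.0% in ERG 1 (95% Wilson interval 78.2 to 85.2%) and 78.5% in GABPα 2 (77.0 to 79.9%), against 54.5% in ERG 2 (51.4 to 57.6%) and 56.8% in GABPα 1 (55.1 to 58.5%). The samples of each target thus lay on both sides. From 100 up to 200 the shares were 33.5%, 14.9%, 23.2% and 35.2% in ERG 1, ERG 2, GABPα 1 and GABPα 2, again with overlap. Under 100, both GABPα samples were above both ERG samples, with 7.31% and 8.58% against 2.81% and 1.83%. Intervals of this kind cover counting error over peaks only.

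The strongest single peaks reached like scores in all samples, but the scores of ERG fell off sooner with rank. The highest score was 3139 in ERG 1, 3120 in ERG 2, 3228 in GABPα 1 and 3218 in GABPα 2. A score of exactly 3100 recurred in 1, 4, 35 and 44 peaks, so the order among the strongest GABPα peaks is partly tied. At rank 100 the scores were 553 and 793 for ERG 1 and 2, against 2348 and 2406 for GABPα 1 and 2. At rank 1000 they were 150.3 and 250.3 against 946 and 964. The curves of the GABPα samples ran together over the whole list, whereas ERG 2 lay above ERG 1. Read numbers, on which MACS scores also depend, are not given in the sources used here.

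**Figure D2:**
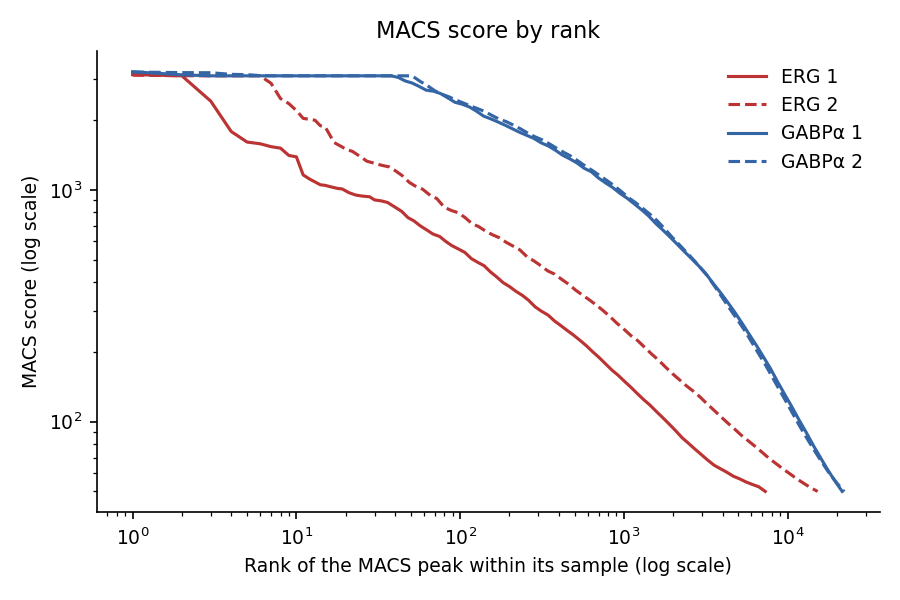
MACS score (log scale) against the rank of the peak within its sample (log scale). Solid lines are replicate 1 and dashed lines replicate 2; at rank 1000 the ERG samples (red) are at 150.3 and 250.3 and the GABPα samples (blue) at 946 and 964.

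GABPα sites were also found again more often between replicates. A region was taken as reproducible where high confidence peaks of both replicates of a target overlapped by at least 1 bp, which gave 781 ERG regions and 6818 GABPα regions. These were 38.5% of the 2027 merged ERG regions of either replicate and 64.5% of the 10576 merged GABPα regions. The unequal lists of ERG 1 and 2 (1103 and 1801 peaks) limit the ERG share. By sample, 70.8% of the high confidence peaks of ERG 1 and 48.7% of those of ERG 2 were found in the other replicate. For GABPα 1 and 2 these shares were 86.4% and 73.1%, so ERG 1 and GABPα 2 lay close together. The scores of the replicates over reproducible regions had a Spearman's rho of 0.51 for ERG and 0.85 for GABPα, as a description over regions that share their libraries. The shares by sample rose when any MACS peak of the other replicate counted. Of all high confidence peaks of ERG 1, found again or not, 91.5% had at least a MACS peak in ERG 2. Of those of ERG 2, 78.8% had one in ERG 1. For GABPα the shares were 93.5% and 92.2%.

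In the reproducible regions the median score was 241 in ERG 1, 359 in ERG 2, 424 in GABPα 1 and 425 in GABPα 2. The GABPα samples were higher, and the difference of the means was 124. It came to 223 without ERG 2 and to 28.4 without GABPα 1. There all high confidence peaks of the remaining replicate stood for the target, against reproducible regions of the other target. Those of GABPα 2 had a median of 328, which is below the 359 of ERG 2. The whole MACS peaks behind these regions had a median width of 407 bp in ERG 1, 894 bp in ERG 2, 1118 bp in GABPα 1 and 974 bp in GABPα 2. GABPα peaks were wider by a ratio of means of 1.61. The narrow peaks of ERG 1 weighed on this ratio, which was 1.17 without ERG 1 and 2.70 without ERG 2. The SWEMBL intervals inside MACS peaks differed less, with median widths of 172 and 151 bp in ERG 1 and 2 and 192.5 and 208 bp in GABPα 1 and 2.

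Reproducible ERG regions mostly lay away from reproducible GABPα regions, although near neighbours were common. Of the 781 ERG regions, 140 overlapped a GABPα region, or 17.9% (15.4 to 20.8%). Another 30 lay up to 1 kb away, 89 between 1 and 10 kb, 231 between 10 and 100 kb and 290 further off, and 1 had no GABPα region on its sequence. The median distance was 52.2 kb, with quartiles of 2.55 and 194 kb. Seen from GABPα, 149 of 6818 regions overlapped an ERG region, or 2.19% (1.86 to 2.56%), and 6161 were more than 100 kb from the nearest ERG region. The median distance was 1382 kb in this direction.

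Set size weighs on these figures, because there were more GABPα than ERG regions to be near to. With GABPα cut to its 781 strongest regions by score percentile, 14 ERG regions overlapped one, or 1.79% (1.07 to 2.99%). The median distances then became 1674 kb from ERG and 1540 kb from GABPα. Like values in both directions follow largely from the equal set sizes. The cut changed the number and the strength of the GABPα regions together, and the part of each was not tested. Within each target the nearest region of the same target was at a median of 532 kb for ERG and 57.8 kb for GABPα. Even so, 21.5% of the ERG regions and 24.3% of the GABPα regions had a neighbour of their own target within 10 kb. Some of these neighbours are pieces of a single MACS peak, and with whole MACS peaks the shares were 15.0% of 734 and 12.2% of 6288.

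**Figure D3:**
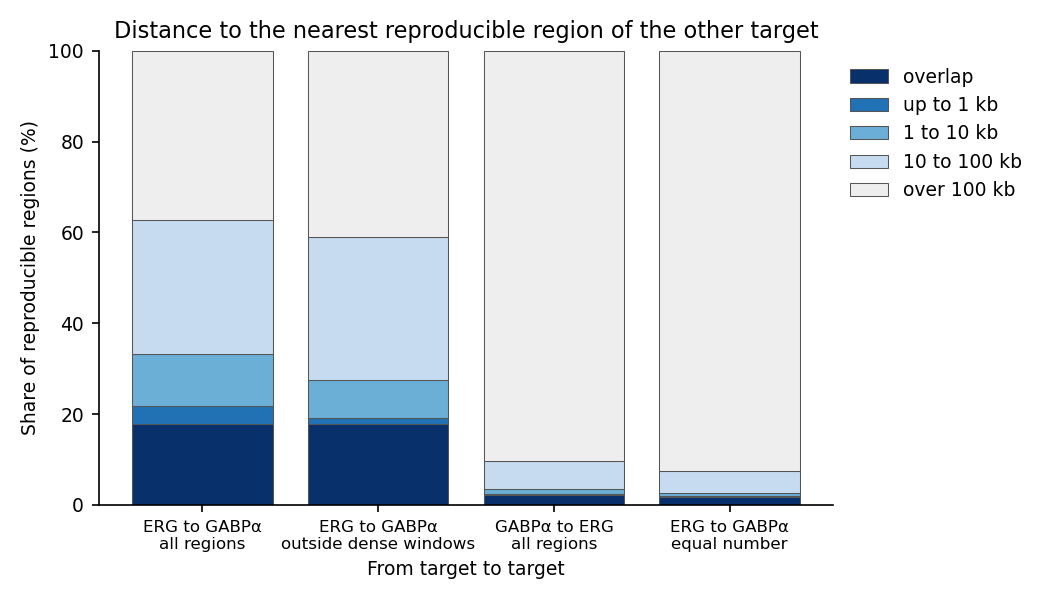
Share of reproducible regions (%) by distance to the nearest reproducible region of the other target. From left to right the bars hold 781 ERG regions, 654 ERG regions outside the dense windows described further on, 6818 GABPα regions, and the 781 ERG regions set against the 781 strongest GABPα regions; overlap falls from 17.9% in the first bar to 1.79% in the last.

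One sample weighed on the overlap. GABPα 1 peaks overlapped 147 of the 781 ERG regions, or 18.8% (16.2 to 21.7%), while GABPα 2 peaks overlapped 243, or 31.1% (28.0 to 34.4%). The median distance from ERG was 42.0 kb to the peaks of GABPα 1 and 11.2 kb to those of GABPα 2. With each GABPα sample limited to its 5000 highest-scoring peaks, the shares were 12.2% (10.1 to 14.6%) and 16.4% (14.0 to 19.1%). GABPα 2 thus stayed higher at equal number, with intervals that overlap. In the other direction, leaving out ERG 1 made the largest change. The 1801 peaks of ERG 2, set in place of the 781 ERG regions, overlapped 4.05% of the GABPα regions. The median distance was 570 kb. The larger number of peaks weighs on both values, and no value at equal number was computed for this direction.

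A lower threshold for the other target joined many more ERG regions to GABPα. Of the 781 ERG regions, 452 held a MACS peak of both GABPα samples, or 57.9% (54.4 to 61.3%). A further 117 held 1 from a single GABPα sample, and 212, or 27.1% (24.1 to 30.4%), held none. For the 6818 GABPα regions the order was turned, since 487 held a MACS peak of both ERG samples, 701 of a single ERG sample, and 5630, or 82.6% (81.7 to 83.5%), of neither. Most ERG regions thus had some called GABPα signal, whereas most GABPα regions had no called ERG signal. The number of MACS peaks differs between targets, and these shares move with it.

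The share of ERG regions that overlapped GABPα was alike over the range of ERG scores. With the ERG regions split into 4 classes of rising score percentile, 36 of 196 overlapped a GABPα region in the lowest class, followed by 31 of 195, 37 of 195 and 36 of 195. The lowest of these shares was 15.9% (11.4 to 21.7%) and the highest 19.0% (14.1 to 25.1%), each within the interval of the other. ERG regions that overlapped GABPα had median scores of 257 and 347 in ERG 1 and 2, against 239.9 and 365 for those that did not. The overlapping regions were higher in ERG 1 and lower in ERG 2. For GABPα regions the medians were 411 and 458 with ERG overlap and 424 and 424 without, lower in GABPα 1 and higher in GABPα 2.

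The MACS peaks of all 4 samples merged into 41181 regions. Of these, 11667 had peaks in both GABPα samples and in no ERG sample, 1178 had peaks in both ERG samples and in no GABPα sample, and 1581 had peaks in all 4. To compare targets in the last class, each score was turned into its percentile among the peaks of its own sample. The median percentiles were 79.4 in ERG 1, 86.7 in ERG 2, 66.5 in GABPα 1 and 68.5 in GABPα 2, so that the shared regions stood higher in the ERG lists. The percentile was higher in both ERG samples at 785 regions (49.7%) and higher in both GABPα samples at 292 (18.5%), while at 504 the targets overlapped. The GABPα lists are longer and hold more high scores, which lowers the percentile of a given score there. The raw scores ran the other way, with medians of 114 and 158.5 in ERG 1 and 2 against 188 and 186 in GABPα 1 and 2.

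The sites with the highest score percentiles show how far the targets can part. Coordinates are on hg18, and the regions are not assigned to genes here. Among the 212 ERG regions with no GABPα MACS peak, the strongest was chr1:158776329-158777142, with scores of 1783 in ERG 1 and 2352 in ERG 2. Its nearest reproducible GABPα region was 16.5 kb away. Next came chr3:152336233-152337008, with scores of 1051 and 1648 and a GABPα region at 34.7 kb. The region chr6:2487974-2488542 scored 904 and 1309, with a GABPα region at 7.76 kb. At chr10:121894500-121895216 the scores were 887 and 1464, and at chr1:91049800-91050220 they were 881 and 1268, with the nearest GABPα regions at 102 and 107 kb. The remaining pair were chrX:38397222-38397784, with scores of 735 and 1342, and chr17:22288712-22289612, with 645 and 3100. All 7 scored higher in ERG 2 than in ERG 1.

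Among the 5630 GABPα regions with no ERG MACS peak, the strongest was chr19:60355108-60355590, which scored 3131 in GABPα 1 and 3218 in GABPα 2. The second was chr10:49678250-49678749, with 3100 and 3200. The nearest reproducible ERG regions were 773 kb and 4392 kb away. The next 63 regions were tied at 3100 in both samples. They are pieces of 28 MACS peaks in each sample, since SWEMBL often split a MACS peak, and the 5 named from them come first by position only. They were chr1:2176493-2177764, chr1:159389981-159390800, chr1:178730143-178730649, chr1:247086575-247087308 and chr1:247087512-247087659. The last pair lie side by side.

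At sites bound by both, the balance of scores varied. The region chr10:63195138-63195929 had the highest mean percentile over the 4 samples. It scored 3100 in both ERG samples, against 1366 in GABPα 1 and 1303 in GABPα 2, and was the only region at 3100 in both ERG samples. The region chr1:197277182-197277797 was nearly even, with 939 and 1064 in ERG 1 and 2 and 1158 and 1045 in GABPα 1 and 2. The other 5 had higher scores in both GABPα samples. At chr4:140559985-140560423 the scores were 420 and 437 for ERG against 1229 and 1095 for GABPα. At chr4:79750590-79751091 they were 571 and 503 against 963 and 1032. At chr12:9808503-9809342 they were 416 and 292 against 1238 and 1664. At chr2:227345547-227346006 they were 524 and 326 against 1143 and 1101. Among these 5 the widest gap was at chr1:19378954-19379324, with 238 and 311 against 2190 and 1795.

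Part of the ERG regions was gathered in a few places. In windows of 1 Mb, 7 windows held at least 5 reproducible ERG regions each, and no other window held more than 4. Together these dense windows, which were picked after the counts had been seen, contained 127 ERG regions (16.3%) and 43 GABPα regions (0.631%). The choice by ERG counts fixes the direction of this difference. The 7 windows fullest in GABPα regions, chosen in the same way, held 148 of the 6818 GABPα regions (2.17%). The window chr16:44000001-45000000 alone had 50 ERG regions within 47.0 kb. The others were chr10:41000001-42000000 with 23, chr2:90000001-91000000 with 20, chr4:48000001-49000000 with 14, chr4:49000001-50000000 with 9, chr10:39000001-40000000 with 6 and chrY:12000001-13000000 with 5. ERG 2 had 39 MACS peaks in the chromosome 16 window and 17 in that on chromosome 2, so some regions there shared an ERG 2 MACS peak. ERG 1 had 75 and 42 MACS peaks in these windows. In single samples, dense windows took 14.5% of the high confidence peaks of ERG 1 and 11.7% of those of ERG 2, against 0.543% and 1.11% for GABPα 1 and 2.

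**Figure D4:**
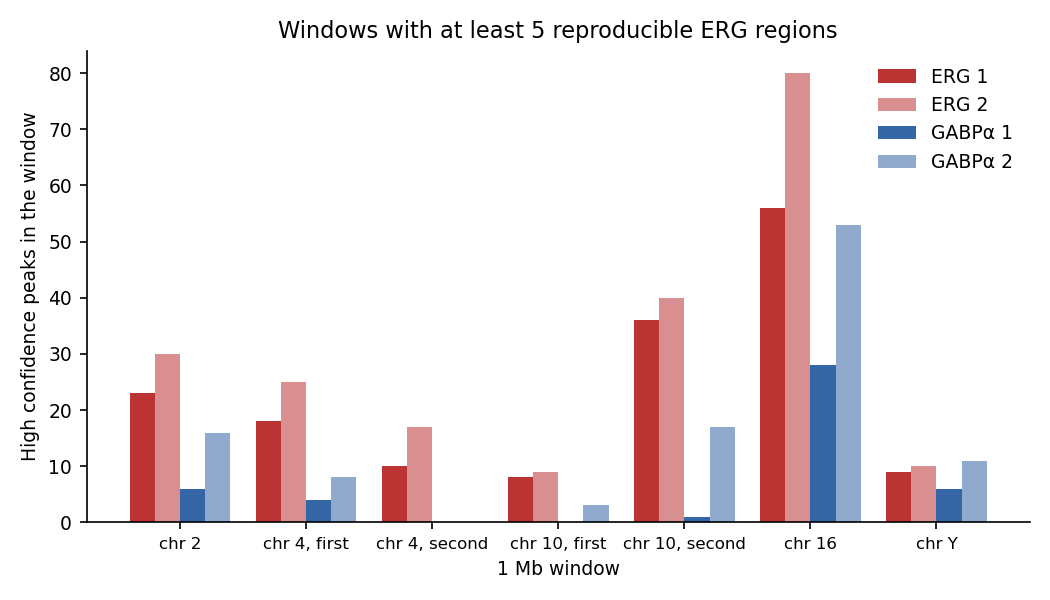
High confidence peaks of each sample in the 7 windows of 1 Mb with at least 5 reproducible ERG regions, named by chromosome in order of position. The window on chromosome 16 holds the most peaks in every sample, with 56 and 80 in ERG 1 and 2 and 28 and 53 in GABPα 1 and 2.

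Apart from the window on chromosome Y, the dense windows bordered the longest stretch of their chromosome without a MACS peak in any of the 4 samples. That stretch was 9.81 Mb long on chromosome 16, 3.39 Mb on chromosome 2, 3.09 Mb on chromosome 4 and 2.48 Mb on chromosome 10, and the ERG regions lay at a median of 0.0075 to 0.72 Mb from its edge. Over all chromosomes, 141 ERG regions were within 1 Mb of such an edge, most of them in the dense windows. Outside the dense windows 19 of 653 ERG regions were, or 2.91% (1.87 to 4.50%), and 55 of 6771 GABPα regions, or 0.812% (0.625 to 1.06%). The sequence of these places was not analysed here.

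The dense windows were not free of GABPα. The chromosome 16 window was also the fullest for GABPα, with 26 reproducible regions, and 19 of its 50 ERG regions overlapped one. GABPα 1 and 2 had 18 and 22 MACS peaks there, so some of the 26 regions shared a MACS peak. The next windows for GABPα had 23, 23, 22 and 19 regions, of which the first 3 were on chromosome 19, and these 4 held 1 ERG region in all. In the dense windows, ERG peaks were weaker and narrower than elsewhere in ERG 1 but not in ERG 2. The median scores were 156 inside and 261 outside in ERG 1, and 381 and 358 in ERG 2. The median MACS widths were 147 and 428.5 bp in ERG 1, and 1066 and 888 bp in ERG 2.

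The dense windows weighed little on the overall overlap of ERG regions but more on close neighbours. Outside them, 116 of 654 ERG regions overlapped a GABPα region, or 17.7% (15.0 to 20.9%), and the median distance was 65.6 kb. Of the 30 ERG regions that lay up to 1 kb from GABPα without overlap, 21 were inside. From the side of GABPα, 30 of the 43 regions inside overlapped ERG, against 119 of 6775 outside (1.76%). Peaks of GABPα 2 covered 55 of the 127 ERG regions inside, and those of GABPα 1 covered 25. Outside, GABPα 2 still covered more ERG regions, with 188 of 654 against 122.

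The targets also differed in their spread over the chromosomes. The share of a sample's high confidence peaks on a chromosome was higher in both ERG samples at 11 of 24 chromosomes (45.8%), namely 2, 3, 4, 6, 8, 9, 10, 13, 16, 21 and Y. It was higher in both GABPα samples at 10 (41.7%), namely 7, 11, 12, 14, 15, 17, 19, 20, 22 and X. On chromosomes 1, 5 and 18 the targets overlapped. In the reproducible regions, chromosomes 9 and 21 went the other way, while the rest of those named kept their side. Chromosome 9 held 3.84% of the ERG and 4.05% of the GABPα regions, and chromosome 21 held 0.896% and 1.17%. The shares of one sample sum to 100%, so the chromosomes are not independent of each other.

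Chromosome 19 set the targets furthest apart in favour of GABPα. It held 1.27% and 1.55% of the peaks of ERG 1 and 2 and 6.83% and 5.82% of those of GABPα 1 and 2, a ratio of means of 4.48. Reproducible regions came to 7.19 per Mb for GABPα there, the highest density of any chromosome, and to 0.173 per Mb for ERG. Chromosome X followed with 0.907% and 1.39% for ERG against 3.49% and 3.03% for GABPα, and chromosome 22 with 0.725% and 1.17% against 2.45% and 2.23%.

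Chromosomes 4, 10, 16 and Y leaned to ERG, and all 4 held dense windows. On chromosome 10 the shares were 8.98% and 8.16% for ERG against 4.43% and 4.70% for GABPα. Outside the dense windows they were 5.83% and 6.16% against 4.44% and 4.54%. On chromosome 4 they were 7.80% and 7.55% against 3.51% and 3.55%, and outside the windows 6.15% and 5.91% against 3.48% and 3.51%. Chromosome 16 changed sides, from 7.16% and 6.72% against 3.80% and 3.79% to 2.44% and 2.58% against 3.48% and 3.28%. The highest ratio in favour of ERG was on chromosome Y, with 1.99% and 1.72% against 0.374% and 0.399%, and outside the windows 1.38% and 1.32% against 0.303% and 0.290%. Outside the windows, 12 chromosomes leaned to ERG and 10 to GABPα.

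**Figure D5:**
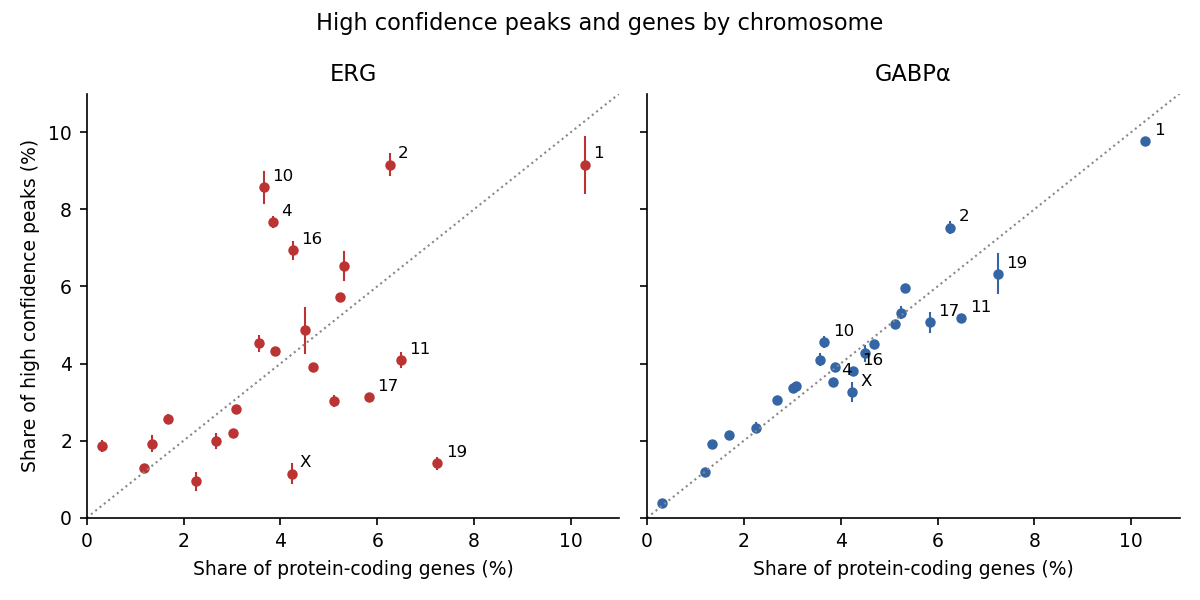
Share of high confidence peaks (%) on each of 24 chromosomes against the share of protein-coding genes there (%), for ERG on the left and GABPα on the right. Points are means of 2 replicates, vertical lines join the replicates, the dotted line marks equal shares, and some chromosomes are named; GABPα points keep close to the line, while chromosome 19 is far below it and chromosomes 4, 10 and 16 are above it for ERG.

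GABPα regions were spread over the chromosomes much as protein-coding genes are. Gene numbers were counted in RefSeq on the GRCh38.p14 assembly, with no positions used. Over the 24 chromosomes, the number of reproducible GABPα regions had a Pearson's r of 0.97 with the number of genes (Spearman's rho 0.94) and of 0.71 with the length between the first and last MACS peak (rho 0.63). For ERG the order was turned, with r of 0.50 for genes (rho 0.53) and 0.77 for length (rho 0.80). Outside the dense windows r was 0.63 for genes and 0.90 for length in ERG, and 0.96 and 0.71 in GABPα. Without chromosomes 19 and Y, r over all regions was 0.58 for genes and 0.75 for length in ERG, and 0.96 and 0.80 in GABPα. These values describe 24 points that share their samples, and gene number and length were themselves related (r = 0.65).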

How the data were processed

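The authors aligned reads to hg18 (BWA 0.5.5, per the labels) and ran MACS and SWEMBL on every sample with an input as control. The deposited MACS files give a score for each peak. The deposited high confidence files hold SWEMBL intervals inside MACS peaks with the MACS score, except that of ERG 1, which holds mostly whole MACS peaks (1069 of 1103) and no score, so that the highest score of the overlapping MACS peak was used. Widths were therefore taken from MACS peaks. No file gives reads per library, so depth is unknown. The methods of the study call the ChIP replicates biological, while the labels do not say what set them apart.

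Overlaps (at least 1 bp), distances between interval ends and 95% Wilson intervals were computed with numpy 2.4.6 and scipy 1.17.1 under Python 3.11.15. These functions were tested on simulated data, partly against bedtools 2.31.1. Samples were compared by exact permutation tests. Named regions were the 7 with the highest mean score percentile in each class, with ties taken by position. The members and lists were chosen with earlier results of these data known. The alternatives were all MACS peaks, a score of at least 100, whole MACS peaks, overlap of 50% of the shorter peak, the 500 strongest regions, each sample left out, a replicate block, partner peaks of either replicate and replicate 1 peaks found in replicate 2. Leaving out dense windows and using SWEMBL intervals in all samples were added after seeing the data. Peaks were not assigned to genes because no hg18 annotation was used here.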

Additional observations from a re-analysis of the deposited data

How the results depend on the processing

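Taken as 1 value per target, GABPα peaks outnumbered ERG peaks, scored higher and were wider under every alternative computed. By sample, the scores overlapped without GABPα 1, with a median of 328 in GABPα 2 against 359 in ERG 2. With all MACS peaks there were 3229 reproducible ERG and 15552 GABPα regions, of which 49.3% and 10.2% overlapped the other target, at median distances of 0.174 and 196 kb. Among the 500 strongest regions of each target 0.40% overlapped, at 3401 kb from ERG and 2479 kb from GABPα. Partner peaks of either replicate gave 32.0% and 4.80%, at 8.81 and 476 kb. Without the dense windows, 1.76% of the GABPα regions overlapped ERG. With scores of at least 100 in all 4 samples, 362 of 511 regions (70.8%) ranked higher in both ERG samples and 47 (9.20%) in both GABPα samples. This cut itself favours ERG ranks, because scores under 100 made up 75.3% and 72.3% of the MACS peaks of ERG 1 and 2. For GABPα 1 and 2 they made up 44.7% and 48.5%, so the higher share is no separate support. When single samples were left out, the ERG number ran from 781 to 1801, the ERG share from 16.0 to 31.1%, the GABPα share from 1.95 to 4.05%, the distance from ERG from 11.2 to 55.4 kb and that from GABPα from 570 to 1400 kb. Of the other 93 of 121 values, 86 stayed within 1.5 times, and 7 kept only their direction. Those were the number ratio with all MACS peaks (2.07), the width ratio without ERG 2 (2.70), and the score difference with all MACS peaks (38.6), the 500 strongest (1548), without ERG 2 (223), without GABPα 1 (28.4) and without GABPα 2 (78.2).

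Same-numbered samples of the targets did not deviate together over the 1581 regions with MACS peaks in all 4 samples (r = 0.010). With 2 replicates per target whose regions share their libraries, this cannot decide whether same-numbered samples were handled together. A replicate block, in which same-numbered samples were compared and the 2 values averaged, gave overlaps of 21.3% and 3.60% at 31.0 and 770 kb, a score difference of 120.0, a width ratio of 1.97 and a number ratio of 6.38. For all of these except the number ratio, which uses single samples throughout, single-sample peaks replace reproducible regions. Read numbers are unknown, so what depth limits could not be measured, and 2 samples per target cannot reach a p under 0.333.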
